A study of Mus musculus with 4 samples.

Results

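Igf2bp1, Igf2bp2 and Igf2bp3 are the genes of the insulin-like growth factor 2 mRNA-binding proteins, and their own transcripts were examined as RNA bound by IGF2BP3 in mouse testis. A read cluster was counted for a gene when its centre lay inside the gene span of GENCODE M21 on the strand of the gene, in the mm10 genome. The 3 genes were all that the family name covers, among 18068 genes with a cluster in either replicate. They held 68 of the 337234 clusters of replicate 1 and 49 of the 216354 clusters of replicate 2.

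IGF2BP proteins bind mRNA through RNA recognition motifs and KH domains and are known for holding target mRNAs in granules, where they change stability, transport and translation. They were first described as oncofetal proteins, abundant in embryos and tumours and low in most adult tissues, and they are also known as readers of N6-methyladenosine (m6A), a methyl mark on adenosine in mRNA. IGF2BP1 is known for carrying beta-actin mRNA in moving cells and neurons, IGF2BP2 for roles in metabolism and muscle, and IGF2BP3 for its expression in germ cells and many tumours. mRNAs of the family are known targets of let-7, a microRNA family known to hold oncofetal genes down in adult tissue.

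The data were eCLIP-seq of whole testes, a mix of germ cells and somatic cells, from wild type C57BL/6 mice at 8 weeks of age. In eCLIP, ultraviolet light links proteins to the RNA they touch, an antibody pulls the protein down, and the RNA fragments that come with it are sequenced. Each of 2 replicates paired 1 IGF2BP3 IP library with 1 SMInput library, the size-matched input, made from 2% of the lysate without the antibody; there were 4 libraries in all, and each suspension came from 2 testes. The recovered totals were 5133438 IP reads and 8706391 SMInput reads in replicate 1, and 4637612 IP reads and 16696122 SMInput reads in replicate 2, so the inputs differed more in depth than the IPs. For each cluster the tables give the log2(fold change), the ratio of IP to SMInput reads after each was scaled to its library, and the −log10(P value) of the same comparison. A cluster was called significant where both listed values reached 2 in that replicate.

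Igf2bp3 and Igf2bp1 held significant clusters in each replicate, and no place in any of the 3 mRNAs was significant in both. In replicate 1, 7 of the 68 clusters were significant, 5 in Igf2bp3, 2 in Igf2bp1 and 0 in Igf2bp2. In replicate 2, 12 of 49 were significant, 8 in Igf2bp3, 4 in Igf2bp1 and 0 in Igf2bp2. These shares were 10.3% (Wilson 95% interval 5.08% to 19.8%) beside 4.92% of all clusters in replicate 1, and 24.5% (14.6% to 38.1%) beside 13.2% of all clusters in replicate 2. Clusters of a gene come from the same transcripts and are not independent, so these intervals cover counting error only. The number of significant sites shared by the replicates was 0, while 15.1% of the genes with a cluster in both replicates had such a site. Genes with at least 1 significant cluster made up 35.5% of the genes with a cluster in replicate 1 and 57.0% in replicate 2.

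The order of the genes was the same in both replicates. Igf2bp3 held 39 clusters in replicate 1 and 32 in replicate 2, more than 84.8% and 87.4% of the genes with a cluster. Igf2bp1 held 26 and 17, and Igf2bp2 held 3 and 0, beside a median of 9 and 7 clusters per gene over all genes with a cluster. Since the genes differ in length, clusters with an exonic centre were set against exon length in the longest basic transcript. Igf2bp3 had 4.83 and 4.60 exonic clusters per kb of exon in replicates 1 and 2, Igf2bp1 had 2.63 and 2.03, and Igf2bp2 had 0.769 and 0. The order of the 3 genes was again the same in both replicates. The density over all genes was not counted, and these clusters include those that were not significant. The part of mRNA amount in this order was not tested.

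The clusters of the family rested on few reads. Where read numbers were recovered, their median was 4 IP reads in either replicate, the same as over all clusters. The median SMInput reads were 1 and 3.5, against 2 and 6 over all clusters. The highest IP read number of any cluster in the 3 genes was 16 in replicate 1 and 19 in replicate 2. A cluster with 1 SMInput read needed at least 7 IP reads to pass in replicate 1 and 4 in replicate 2, and a cluster with 4 SMInput reads needed 11 and 6. Of the significant clusters, 4 of 7 in replicate 1 and 12 of 12 in replicate 2 held fewer than 10 IP reads, beside 29.1% and 62.0% of all significant clusters with recovered reads. Their median IP reads were 9 and 6, beside 13 and 8 over all significant clusters. Another 35 clusters in replicate 1 and 15 in replicate 2 reached the fold threshold and did not pass on the P value. When the reads of both replicates were thinned to the same IP and SMInput totals, the mean number of significant clusters over 20 draws was 6.45 in replicate 1 (4 to 8) and 4.65 in replicate 2 (2 to 7). These ranges overlap, and the clusters themselves had been called at full depth. Thinned SMInput numbers were kept at 1 or more, which can lower the fold of clusters with few SMInput reads. Of the 12 significant clusters of replicate 2, 4 held 1 SMInput read.

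**Figure D1:**
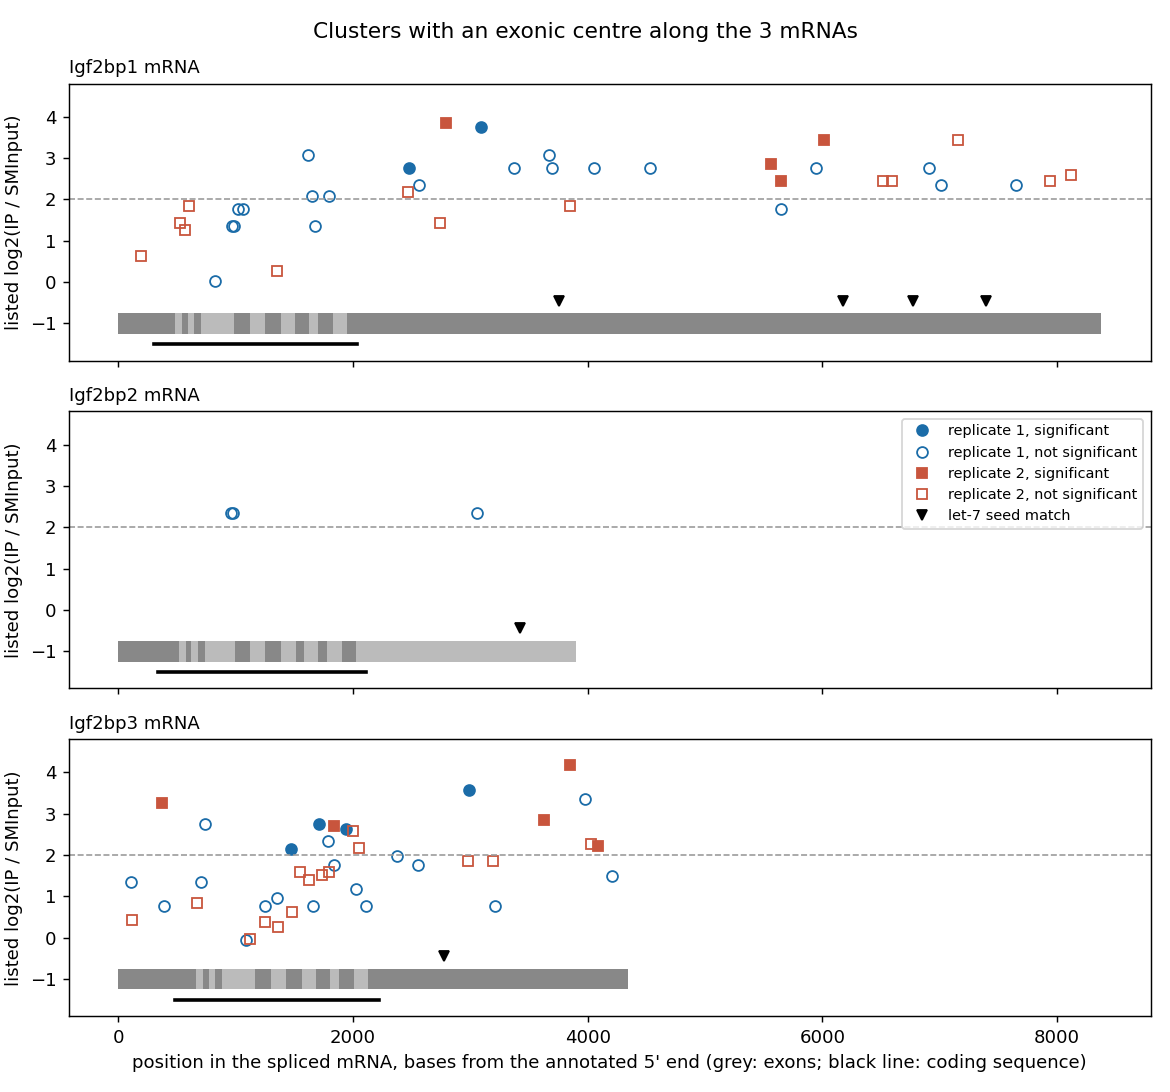
Listed log2(fold change) of IP over SMInput for each cluster with an exonic centre (vertical axis) against its position in the spliced mRNA in bases (horizontal axis), with filled symbols for significant clusters, a dashed line at the threshold of 2 and triangles at let-7 seed matches. The 6 significant clusters of Igf2bp1 all lie past the coding sequence, those of Igf2bp3 lie in the 5′UTR, coding exons and 3′UTR, and Igf2bp2 has 3 open circles from replicate 1.

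Igf2bp3 encodes the protein that was pulled down. The gene (ENSMUSG00000029814.10) lies on the minus strand at chr6:49085223-49214957, with 15 exons, a coding sequence of 1737 bases without the stop codon and a 3′UTR of 2122 bases. Its coding cluster with the highest −log10(P value) lay in exon 11, at chr6:49094199-49094268, with 16 IP reads and 4 SMInput reads in replicate 1. The fold was 6.78 (95% exact interval 2.19 to 27.9), and the adjusted p of Fisher's exact test was 0.00655. In replicate 2 a cluster at chr6:49094157-49094257 overlapped it by 59 bases and held 16 IP and 20 SMInput reads, with a fold of 2.88 (1.40 to 5.85) and an adjusted exact p of 0.0191. By the exact test, exon 11 thus had higher IP than SMInput in both replicates. Its log2(fold change) of 1.53 in replicate 2 was below the threshold. That value was also the median over all clusters of replicate 2, so the cluster did not stand out there by its fold. When the fold threshold was lowered to a log2 value of 1, exon 11 held the only shared site of the family.

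In replicate 1, 2 other coding clusters were among the most read. The one in exon 9, at chr6:49105629-49105696, had 13 IP and 5 SMInput reads, a fold of 4.41 (1.48 to 15.8) and an adjusted exact p of 0.0522. In replicate 2 the overlapping cluster held 3 IP and 7 SMInput reads, with a log2(fold change) of 0.63. The other, in exon 13 at chr6:49088430-49088565, had 11 IP and 3 SMInput reads, a fold of 6.22 (1.64 to 34.7) and an adjusted exact p of 0.0572. Its counterpart in replicate 2 had 5 IP and 3 SMInput reads and a log2(fold change) of 2.59, close to the 2.64 of replicate 1, with a −log10(P value) of 1.82. The exon 9 and exon 13 clusters thus passed the listed P threshold and missed an adjusted p of 0.05.

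In replicate 2 the significant Igf2bp3 clusters with the most IP reads lay in exon 12, the 3′UTR and the 5′UTR. The cluster at chr6:49090976-49091051 was listed with the same ends in both replicates, and covered exon 12 from its first to its last base. It had 9 IP and 5 SMInput reads in replicate 2, a fold of 6.48 (1.95 to 24.6) and an adjusted exact p of 0.00841, and 6 IP and 3 SMInput reads in replicate 1, where its log2(fold change) was 1.76. The 3′UTR cluster at chr6:49085453-49085502 lay 1867 bases past the end of the coding sequence, near the annotated end of the mRNA, with 9 IP and 7 SMInput reads and a fold of 4.63 (1.53 to 14.6; adjusted exact p = 0.0221). The 5′UTR cluster at chr6:49214535-49214637 held 8 IP and 3 SMInput reads, with a fold of 9.60 (2.30 to 56.2) and an adjusted exact p of 0.00568. Replicate 1 had an overlapping 5′UTR cluster with 4 IP and 4 SMInput reads and a log2(fold change) of 0.76. No 5′UTR cluster of replicate 1 was significant.

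The remaining significant clusters of Igf2bp3 held fewer IP reads than those named above in the same replicate. In replicate 1, 1 lay in the 3′UTR at chr6:49086560-49086592 with 7 IP reads and 1 SMInput read, and 1 in intron 2 at chr6:49196309-49196369 with 9 IP reads and 1 SMInput read. The intronic cluster had the highest log2(fold change) of the family in replicate 1, 3.93, with an interval of the fold from 2.12 to 669. In replicate 2, the log2(fold change) was highest, 4.17, in 3 clusters of 5 IP reads and 1 SMInput read, 2 of them in intron 11 and 1 in the 3′UTR. The fold of these 3 had an interval of 2.01 to 851, so its size is poorly fixed by so few reads. Another 3′UTR cluster of replicate 2, at chr6:49085932-49085952, had 6 IP and 3 SMInput reads and a log2(fold change) of 2.85. Intron 1 held a significant cluster in replicate 2, at chr6:49214102-49214138, over a cluster of replicate 1 with 4 IP and 2 SMInput reads and a log2(fold change) of 1.76.

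Igf2bp1 (ENSMUSG00000013415.9) lies on the minus strand at chr11:95957163-96005940, with 15 exons and a 3′UTR of 6340 bases, the longest of the family. All 2 significant clusters of replicate 1 and all 4 of replicate 2 were among the 13 and 12 clusters in this 3′UTR. The 9 and 4 coding clusters were not significant. Over all genes, 3′UTRs held 10.97% and 14.05% of the clusters and 43.2% and 36.7% of the significant ones. Coding exons held 26.4% and 33.7% of the clusters and 28.3% and 20.3% of the significant ones. Whether Igf2bp1 differs from other genes in this was not tested. In replicate 1, the cluster at chr11:95962419-95962481 had 8 IP reads and 1 SMInput read, a fold of 13.6 (1.82 to 602) and an adjusted exact p of 0.0412. The other, at chr11:95963028-95963095, had 8 IP and 2 SMInput reads, a fold of 6.78 (1.35 to 65.6) and an adjusted exact p of 0.0913. A cluster of replicate 2 overlapped the latter by 51 bases, with 5 IP and 4 SMInput reads, a log2(fold change) of 2.17 and a −log10(P value) of 1.56. This was 1 of the 2 places in the family where both replicates reached the fold threshold, beside exon 13 of Igf2bp3.

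In replicate 2, 3 of the significant Igf2bp1 clusters lay near each other in the distal 3′UTR, 3523, 3610 and 3974 bases past the end of the coding sequence. That at chr11:95959861-95959925 had 9 IP and 6 SMInput reads and a fold of 5.40 (1.72 to 18.4; adjusted exact p = 0.0146). The same place held a cluster of 4 IP and 2 SMInput reads in replicate 1, with a log2(fold change) of 1.76. The clusters at chr11:95959507-95959551 and chr11:95959960-95959999 had 6 IP reads each, with 2 and 3 SMInput reads, folds of 10.8 (1.93 to 109) and 7.20 (1.54 to 44.5) and adjusted exact p of 0.0180 and 0.0336. No cluster of replicate 1 overlapped these. The fourth significant cluster, at chr11:95962729-95962762, had 4 IP reads and 1 SMInput read, the fewest of any significant cluster in the 3 genes.

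Igf2bp2 (ENSMUSG00000033581.17), at chr16:22059009-22163299 on the minus strand, gave the fewest reads. Replicate 1 listed 2 clusters in exon 6, at chr16:22081741-22081750 and chr16:22081751-22081785, which adjoin, and 1 in the 3′UTR at chr16:22059813-22059889. Each held 3 IP reads and 1 SMInput read, with a log2(fold change) of 2.35, a fold interval of 0.409 to 267 and an adjusted exact p of 0.265. Replicate 2 listed no cluster in this gene. Binding to Igf2bp2 mRNA was therefore not detectable at this depth. In whole testis, weak binding, few cells with the mRNA and little of it per cell cannot be told apart.

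**Figure D2:**
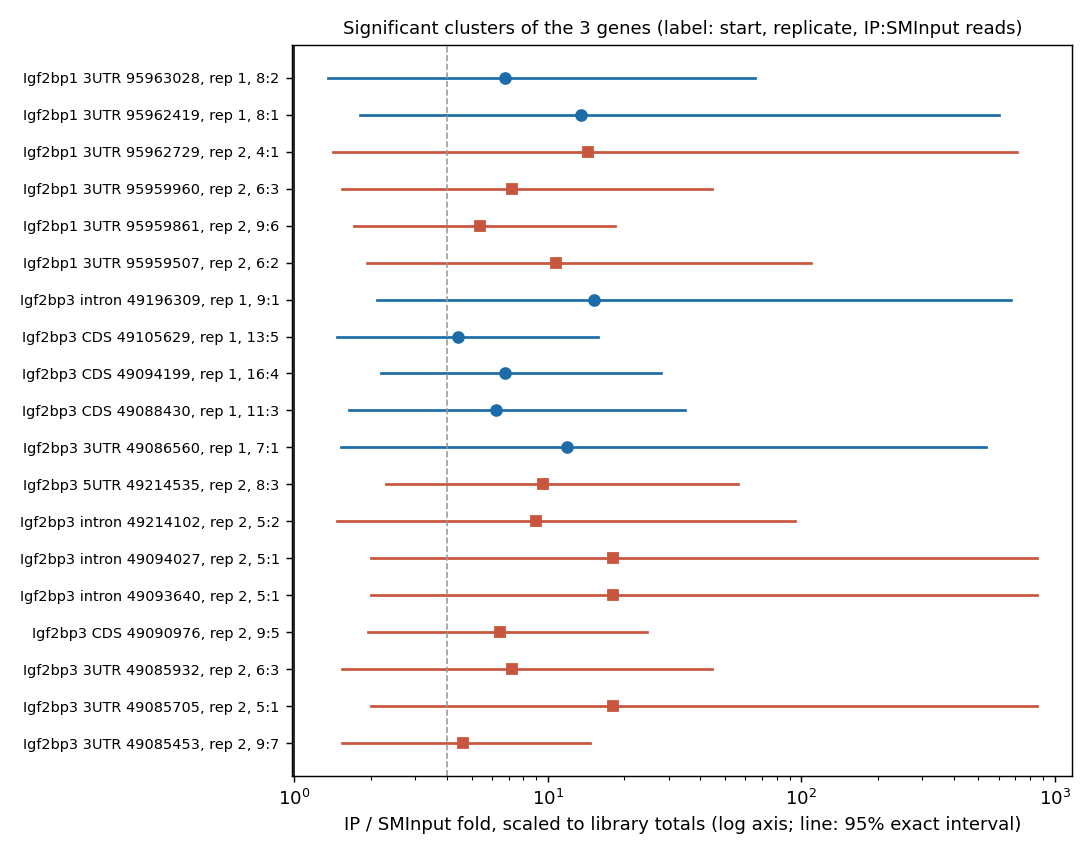
Fold of IP over SMInput reads, scaled to library totals (horizontal log axis, with 95% exact intervals as lines), for the 19 significant clusters of Igf2bp1 and Igf2bp3, each labelled with its region, start, replicate and IP:SMInput reads. The solid line marks a fold of 1 and the dashed line the threshold of 4, and the intervals reach from 1.35 at the lowest to 851 at the highest.

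Over all clusters with recovered reads, Fisher's exact test with Benjamini-Hochberg adjustment gave higher IP at an adjusted p under 0.05 for 5.42% in replicate 1 and 20.2% in replicate 2. In the 3 genes it did so for 3 clusters of 66 in replicate 1, in Igf2bp3 exon 11, Igf2bp3 intron 2 and the Igf2bp1 3′UTR. In replicate 2 it did so for 14 of 48, 10 in Igf2bp3 and 4 in Igf2bp1. The 10 took in 2 coding clusters of Igf2bp3 below the fold threshold, in exons 10 and 11. The exon 10 cluster at chr6:49104174-49104298 held 19 IP and 26 SMInput reads, the most of the family, with a fold of 2.63 (1.38 to 4.94; adjusted exact p = 0.0176). The log2(fold change) of this cluster, 1.40, was below the median of 1.53 over all clusters of replicate 2. In replicate 1 the overlapping cluster had 9 reads of each kind and a log2(fold change) of 0.76.

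Across the replicates, 18 of 68 clusters of replicate 1 and 18 of 49 of replicate 2 overlapped a cluster of the other, beside 24.9% and 37.3% of all clusters. They formed 19 pairs, 17 in Igf2bp3 and 2 in Igf2bp1. Of these pairs, 17 were exonic, as were 46 of the 68 clusters of replicate 1 and 37 of the 49 of replicate 2. The log2(fold change) was higher in replicate 1 in 11 pairs and higher in replicate 2 in 8. Of the significant clusters, 5 of 7 in replicate 1 and 4 of 12 in replicate 2 overlapped a cluster of the other replicate, beside 53.4% and 41.7% of all significant clusters. In 9 pairs 1 replicate was significant and in 0 both were. The pair in exon 6 of Igf2bp3 was listed at a −log10(P value) of 0 on either side, with log2(fold change) values of −0.05 and −0.03.

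**Figure D3:**
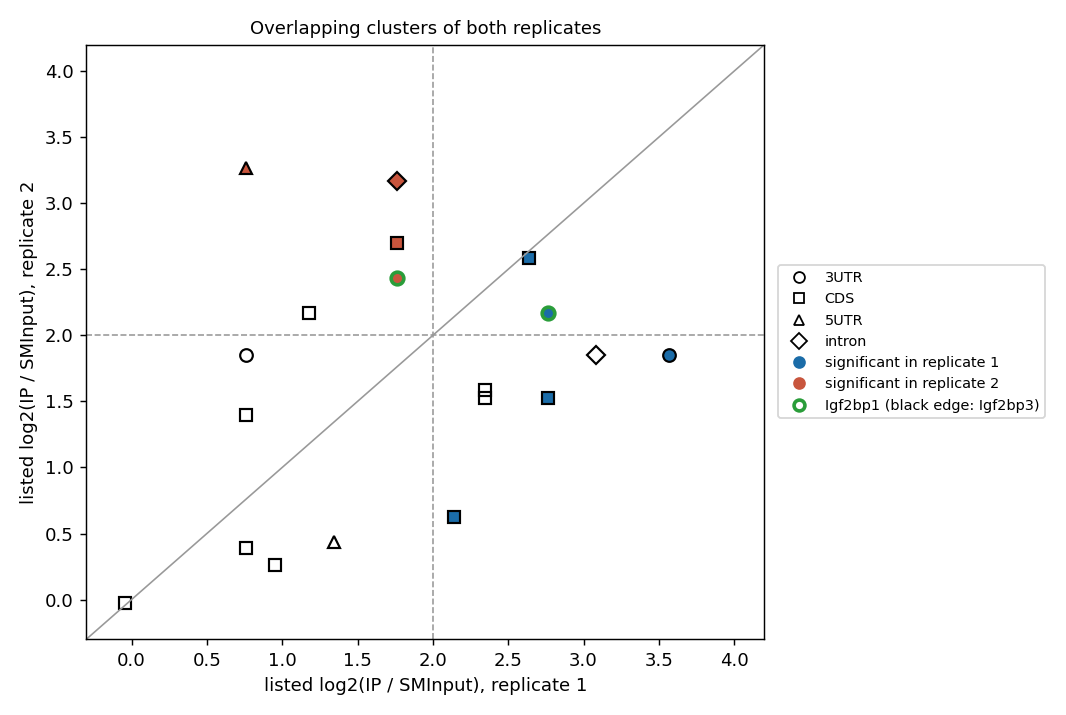
Listed log2(fold change) in replicate 1 (horizontal) and replicate 2 (vertical) for the 19 pairs of overlapping clusters, with the symbol giving the region, the fill the replicate in which the cluster was significant, and dashed lines at 2. No pair is significant in both replicates, and 2 pairs lie beyond 2 on both axes.

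IGF2BP proteins are known to bind mainly in 3′UTRs, so the place of each significant cluster was read from basic transcripts. Of the significant clusters of the family, 3 of 7 in replicate 1 lay in 3′UTRs (42.9%, exact 95% interval 9.90% to 81.6%), beside 43.2% of all significant clusters. In replicate 2 it was 7 of 12 (58.3%, 27.7% to 84.8%), beside 36.7%. Both intervals take in the share over all significant clusters. Coding exons held 3 and 1 of the significant clusters, introns 1 and 3, and 5′UTRs 0 and 1. All significant clusters of Igf2bp1 were in its 3′UTR, where 13 of its 26 clusters in replicate 1 and 12 of 17 in replicate 2 lay. In Igf2bp3, 1 of 5 and 3 of 8 significant clusters were in the 3′UTR, as were 6 of its 39 and 6 of its 32 clusters. Whether the genes differ in this was not tested.

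Of the family's clusters, 11 in replicate 1 and 11 in replicate 2 touched an exon border. They began at the exon's first base or 1 base before it, or ended at its last base. They were in exons 6, 7, 11, 12 and 13 of Igf2bp1 in replicate 1 and exons 2, 3 and 4 in replicate 2. In Igf2bp3 they were in exons 10 to 14 in replicate 1, and in exons 2 and 9 to 14 in replicate 2. The share of all clusters at an exon border was not counted, so the count cannot be read as particular to the family. On the plus strand of the same spans, the Igf2bp1 and Igf2bp2 spans held 0 clusters in either replicate. The Igf2bp3 span held 1 in replicate 1, in Malsu1, a gene on the plus strand that overlaps the end of Igf2bp3, and 0 in replicate 2.

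The gene given to these clusters changed with the way of assigning them. By the nearest annotated start site on either strand, 24 of the 26 Igf2bp1 clusters of replicate 1 and 15 of 17 in replicate 2 went to Mir3063, a microRNA gene inside the last exon of Igf2bp1. For Igf2bp3, 24 of 39 and 25 of 32 went to Malsu1, and all 3 Igf2bp2 clusters went to Ndufa11b, an annotated pseudogene. Under that rule, 1 significant cluster in replicate 1 and 2 in replicate 2 were left to the family, all in Igf2bp3.

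Motifs were counted on the RNA strand in 100 bases of genomic sequence around the centre of each significant cluster, beside all significant clusters of the same replicate. GGAC, the core of the m6A consensus, was in 0 of 7 windows in replicate 1, beside 26.2% of all, and in 8 of 12 in replicate 2, beside 24.0%. GAACA was in 0 of 7 (8.89% of all) and 2 of 12 (8.38%), and AAACC in 0 of 7 (8.65%) and 0 of 12 (8.11%). ACAC, a CA-rich element, was in 0 of 7 (27.4%) and 1 of 12 (25.9%). GGC, a core that KH domains are known to recognise, was in 3 of 7 (68.7%) and 11 of 12 (66.7%). CATT, an older IGF2BP consensus, was in 4 of 7 (37.1%) and 5 of 12 (36.8%). For 3′UTR clusters alone, GGAC was in 0 of 3 windows in replicate 1, beside 25.0%, and 4 of 7 in replicate 2, beside 23.4%. A match is a description of the sequence, not a site.

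Sequences at the centre of significant clusters are shown for the named clusters, those with the most IP reads in each gene and replicate. Each has 30 bases, read 5′ to 3′ on the RNA strand from GRCm38, with capitals where a motif of at least 4 letters from those above occurs. Those of replicate 1 come first in each gene.
Igf2bp3 exon 9, chr6:49105648-49105677: gaacgcacCATTacagtgaaaggcagtgtt
Igf2bp3 exon 11, chr6:49094219-49094248: gacggagactgtgcatctgtttattcccgc
Igf2bp3 exon 13, chr6:49088483-49088512: ctaaagaagaggtgaaacttgaagctcaca
Igf2bp3 5′UTR, chr6:49214571-49214600: gtgcttgggtcactgtgtgggtttgaaagc
Igf2bp3 exon 12, chr6:49090999-49091028: atgctaaagtgcggatggtgattatcactg
Igf2bp3 3′UTR, chr6:49085463-49085492: tttttccagtgtttgttttttaaaaaactg
Igf2bp1 3′UTR, chr11:95963047-95963076: cacgaaaattcctcccgttcttaatgtcct
Igf2bp1 3′UTR, chr11:95962435-95962464: atatatgagctctgggaagggggtgtgagc
Igf2bp1 3′UTR, chr11:95959965-95959994: ttttgcagtttgtGGACttagttgctggaa
Igf2bp1 3′UTR, chr11:95959878-95959907: ctttCATTtccctaaactctccgcttttgg
Igf2bp1 3′UTR, chr11:95959514-95959543: tgggctccctgtgGGACtgctctcctcccc
Of these 11 sequences, 4 hold a motif within the 30 bases, and of those of all 19 significant clusters 8 do, 1 of 7 in replicate 1 and 7 of 12 in replicate 2.

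The let-7 microRNAs share a seed, bases 2 to 8, shown in capitals in mature sequences from RefSeq (GRCm38.p6).
mmu-let-7a-5p: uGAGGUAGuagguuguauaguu
mmu-let-7b-5p: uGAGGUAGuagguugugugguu
mmu-let-7g-5p: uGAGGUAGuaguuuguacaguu
The match to this seed, CTACCTC, was found at 4 places in the Igf2bp1 3′UTR, 1 in the Igf2bp2 3′UTR and 1 in the Igf2bp3 3′UTR, which is 0.631, 0.560 and 0.471 per kb. They are shown with the match in capitals.
Igf2bp1, chr11:95961776-95961805: gcagtgctgtgcgaagtaaaCTACCTCaag
Igf2bp1, chr11:95959355-95959384: ggaaccagcagtgctattaaCTACCTCagc
Igf2bp1, chr11:95958761-95958790: tacgagtataaatggatgaaCTACCTCagt
Igf2bp1, chr11:95958138-95958167: gtttcacttttggttttaatCTACCTCtta
Igf2bp2, chr16:22059471-22059500: gaaaaacacacaaataaaagCTACCTCagg
Igf2bp3, chr6:49086785-49086814: aaacgtgcatttttactcaaCTACCTCagg
None of the 6 matches was under a cluster of either replicate. The nearest cluster lay 56 bases away in replicate 1 and 77 in replicate 2, both from the first Igf2bp1 match. The nearest significant cluster lay 143 bases from the second Igf2bp1 match in replicate 2, and in replicate 1 it lay 196 bases from the Igf2bp3 match. CTACCTC lay in the windows of 0.790% and 0.800% of all significant clusters. The share of seed matches under a cluster over all 3′UTRs was not counted.

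Transcripts of known protein partners and of the let-7 pathway were set beside the family. Of 16 genes of ribonucleoprotein partners of IGF2BP proteins, all 16 had clusters in both replicates, 12 and 16 had a significant cluster, and 7 had a shared significant site. Over the 14251 genes with a cluster in both replicates, 5979 and 8491 had a significant cluster and 2148 a shared site. The partner genes also held more clusters, with medians of 42 and 31 per gene beside 13 and 8 over all these genes, and of 2 and 3 significant clusters beside 0 and 1. Of their clusters, 47 of 666 in replicate 1 and 58 of 543 in replicate 2 were significant, which is 7.06% and 10.7%, beside 4.92% and 13.2% of all clusters. Pabpc1, the cytoplasmic poly(A)-binding protein, had 6 shared sites, Matr3, a nuclear matrix protein, had 3, and Elavl1, which binds AU-rich elements, and Fmr1, the fragile X protein, had 1 each, as did Ilf2, Ybx1 and Ybx2. Dhx9, an RNA helicase, had 61 and 45 clusters, 3 and 1 of them significant, and no shared site. Of 13 genes of the let-7 axis, 8 and 11 had a significant cluster and 5 a shared site, beside the same counts over all genes. Their medians were 37 and 26 clusters and 1 and 3 significant clusters per gene, and 7.02% and 17.2% of their clusters were significant, beside 4.92% and 13.2% of all. Tut4, a terminal uridylyl transferase, had 5 shared sites, and Ago2, which carries the mature microRNA, Hmga1 and Trim71 had 2 each. Dgcr8, the partner of Drosha in microRNA processing, had 37 and 34 clusters, 0 and 6 of them significant, and no shared site. Lin28b, which blocks let-7 processing, had 19 and 11 clusters with 0 significant.

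Of 16 RNAs known as IGF2BP targets from other tissues, 14 had clusters in both replicates, 8 and 7 a significant one, and 3 a shared site. Over these 14 genes the medians were 19 and 11 clusters and 1.5 and 0.5 significant clusters per gene, and the other two, Gli1 and Mapt, had no cluster. Of their clusters, 21 of 402 and 31 of 282 were significant. Beside the 5979, 8491 and 2148 of 14251 genes, these counts do not set the list apart. Hmga1, a chromatin protein, had 2 shared sites, and H19, a long noncoding RNA, and Lef1, a transcription factor of Wnt signalling, had 1 each. Actb, whose mRNA gave the family the name zipcode-binding proteins, had 23 and 18 clusters and 0 significant in either replicate. Igf2, which gave the family its present name, had 9 and 7 clusters and 0 significant.

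Markers of testis cells checked the tissue. Clusters were listed for all 6 genes of round and elongating spermatids, all 6 of spermatocytes, all 6 of spermatogonia and all 6 of Leydig cells in both replicates, and for 6 and 5 of the 6 Sertoli cell genes, while 0 of 5 genes not of testis had any. Shared significant sites were in 1 spermatid gene, Acrv1, in the spermatocyte genes Ldhc and Spo11, and in the spermatogonial genes Dazl and Kit, with 5 in Dazl. The spermatid genes Prm1 and Prm2, which package sperm DNA, had 7 and 9 clusters in replicate 1 and 7 and 10 in replicate 2, with 0 significant. The Sertoli and Leydig cell genes had 0 shared sites. In replicates 1 and 2, 7 of 61 and 4 of 58 clusters of the spermatid genes were significant. It was 8 of 245 and 15 of 216 for the spermatocyte genes, and 19 of 106 and 27 of 91 for the spermatogonial genes. Dazl alone held 14 of the 19 and 10 of the 27, and Acrv1 held 5 of the 7 and 3 of the 4 of the spermatid genes. The Sertoli cell genes had 3 of 164 and 7 of 119, and the Leydig cell genes 2 of 46 and 5 of 43, beside 4.92% and 13.2% of all clusters. With 15.1% of genes having a shared site, lists of 6 genes are too short for the counts of genes to tell cell types apart. Which cells the family's reads came from was not tested.

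The genes most like each member were those at the smallest Euclidean distance over 6 values, the log2(1 + number) of clusters, significant clusters and significant 3′UTR clusters in both replicates, among the genes with a cluster in both. For Igf2bp1 these were Dstyk, a protein kinase, at 0.304, Cnep1r1, a subunit of a nuclear envelope phosphatase, at 0.351 and Zfp512b, a zinc finger protein, at 0.388, beside a median distance of 3.92 over 14250 genes. Dstyk had 29 and 17 clusters with 2 and 5 significant. For Igf2bp3 they were Tab3, an adaptor of inflammatory signalling, at 0.578, Gmcl1, a germ cell protein, at 0.593 and Clcn3, a chloride transporter, at 0.620. Of these genes, Dstyk and Clcn3 had 2 shared sites, Cnep1r1, Tab3 and Gmcl1 had 1 each, and Zfp512b had 0, as did the family members. For Igf2bp2, which had no cluster in replicate 2, no gene with clusters in both replicates can be closer than a distance of 1, and 164 genes were tied there. The first by symbol were 1010001N08Rik, 1700082M22Rik and 1700120E14Rik, and nothing can be read from their likeness.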

How the data were processed

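The deposited −log10 values are P values that the authors obtained by comparing IP with SMInput reads in each cluster. A value of 0 is listed where the fold change is near or below 1, and 400 is the highest. The deposited log2 values are the authors' fold changes. Upstream, the authors trimmed reads (cutadapt), removed ribosomal reads (Bowtie2), aligned to mm10 (STAR), collapsed duplicates by molecular identifiers and called clusters with Clipper in each replicate.

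Library totals and cluster reads were recovered as the whole numbers that return both listed values, within 1e-09 for log2 and 2e-06 (Fisher) or 3e-05 (chi-square) for −log10(P value). This gave 1 solution for 301223 of 301288 clusters in replicate 1 and 199765 of 199766 in replicate 2 listed between 0 and 400. The lowest SMInput number is 1, which may stand for no read. Exact tests used scipy 1.17.1, and overlaps bedtools 2.31.1. P values were adjusted over the clusters with recovered reads, which leaves out those listed at 0 or 400. They cover counting error within a replicate, at places that had already been called as clusters.

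Named clusters were, per gene and replicate, the 3 significant ones with the most IP reads, or with none the 2 of highest log2(fold change); other clusters were chosen after their values were seen. Of each list, up to 4 genes with the most shared sites and 1 with none were named, and others were added after their values were seen. Members and lists were chosen with earlier results of these data known.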

Additional observations from a re-analysis of the deposited data

How the results depend on the processing

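Both thresholds at 3 left 1 significant cluster in each replicate, neither in a 3′UTR (0% and 0%). Adjusting the listed P left 3 of 7 in replicate 1, and 11 of 12 in replicate 2. A minimum of 10 IP reads left 3 and 0. Assignment to the nearest start site left 1 and 2. Thinning to equal depth, with SMInput numbers kept at 1 or more, left 4.65 in replicate 2. The number of shared sites was 0 at the stated thresholds. It was 1 with the fold threshold lowered to a log2 value of 1 and 0.1 on average after thinning. With a replicate left out no site can be shared, and the other replicate alone holds 7 to 12 significant clusters, which says nothing of stability. Calls by the exact test went from 3 to 14 in replicate 1 and from 14 to 26 in replicate 2 without adjustment. That alternative, and adjusting the listed P in place of the exact one, were chosen after seeing the data. Of 34 alternative values, the other 18 stayed within 1.5 times the count, or within the binomial interval of the share, among them those for overlap by gene span, the order of regions and all GENCODE transcripts. No paired analysis was possible over all clusters because most were called in 1 replicate or with different ends. The overlapping ones, with the exon 12 cluster of the same ends, were compared without a test. Most clusters hold fewer than 10 IP reads, and the part of depth in these counts was not tested beyond thinning.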
